A study of Mus musculus with 7 samples.

Results

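Neutrophils of low surface CD62L, judged by its share of antibody UMIs, were taken from 1 single-cell library of mouse blood and heart cells. The members were chosen by measured antibody values. Barcodes first had to show 200 genes or more, with no more than 10% of UMIs (unique molecular identifiers, the counted molecules) from mitochondrial genes. The rule then asked for a top hashtag antibody of at least 10 UMIs and at least 3 times the second, and for at least 5 UMIs of the Ly6G antibody, which left 6702 of 11826 barcodes. Within each of the 7 hashtags, cells were ranked by CD62L antibody UMIs as a share of all antibody UMIs other than hashtags. The ranking was divided into 4 groups of equal size. The lowest group holds the 1674 members, out of 22630 barcodes in the whole series, and they were compared with the 1674 cells of the highest group, called the high group here.

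The cells came from C57BL6/J mice aged 8 to 10 weeks, from blood or from ischemic heart tissue. The groups named in the labels were an untouched control (n = 3), sham surgery at day 1 (n = 3) and day 3 (n = 3), and myocardial infarction by permanent coronary ligation at day 1 (n = 5) and day 3 (n = 5), the heart tissue being from the infarcted mice. Viable CD11b+ cells negative for Ter119, B220 and NK1.1 were sorted with Ly6G+ and Ly6G- cells brought to about equal numbers, so the share of neutrophils in the pool was set by the sort. Fluorescent antibodies to CD11b and Ly6G were in the same labelling step as the barcoded ones. Which hashtag marks which tissue, day or surgery is not given in the sources used here, so hashtags served as blocks and no condition was compared. Nothing shows that a hashtag is 1 animal, and p-values measure the spread between hashtags.

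CD62L is a surface lectin with which leukocytes tether to and roll on endothelium. Activated neutrophils cut it from their surface, mainly through the protease ADAM17, while the integrin CD11b (Itgam) is brought to the surface from granules. Neutrophils that have circulated for longer are known to carry less CD62L and more CXCR4, the receptor that draws them back to bone marrow.

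The ranked protein differed between the groups by construction. CD62L made up 5.15% to 21.1% of antibody UMIs in the members (lowest and highest hashtag median; the median over hashtags was 18.0%) and 39.6% to 48.0% in the high group. In Hashtag 1 the last member had a share of 26.4% and the first cell outside 26.5%. In Hashtag 7 the same limits were 8.26% and 8.55%, so the limit of membership differed between hashtags. Hashtags 6 and 7 stood apart from the other five, with member medians of 8.22% and 5.15%, and results that rest on them are also given without them.

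Other antibodies shared the denominator of the ranking and are described without a test, as the hashtag medians of UMIs per cell. CD11b antibody was 25.5 to 93.5 UMIs in members (median 31.5) and 10 to 13 in the high group (median 11), with no overlap, a ratio of 2.31 to 8.5. Within the clusters called neutrophil-like below it was 22.0 to 74.0 against the same 10 to 13. CXCR4 antibody was 11 to 14 UMIs in members and 10 to 11 in the high group. CD49d, the integrin subunit encoded by Itga4, was 15 to 19 against 13 to 14, and CD54 (ICAM-1) was 15 to 30.5 against 14 to 16. Siglec-F antibody, bound by eosinophils and by some neutrophils of inflamed tissue, was 50.5 UMIs in the members of Hashtag 7 against 9 in its high group, while its member medians in the other hashtags were 8 to 11 against 7 to 8 in their high groups. Ly6G antibody, which all ranked cells had to carry, was 17 to 26 UMIs in members and 16 to 20 in the high group. The direction of several antibodies depended on the scale. As a share of antibody UMIs without CD62L, CD11b was higher in members in 7 of 7 hashtags (ratio 1.54 to 3.58), but CXCR4 (0.565 to 0.838), CD54 (0.698 to 0.984) and Ly6G (0.656 to 0.795) were lower in 7 of 7. CD49d was lower on that scale in 4 of 7 hashtags and Siglec-F in 5 of 7, and within neutrophil-like clusters Siglec-F was higher in 6 of 7.

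**Figure D1:**
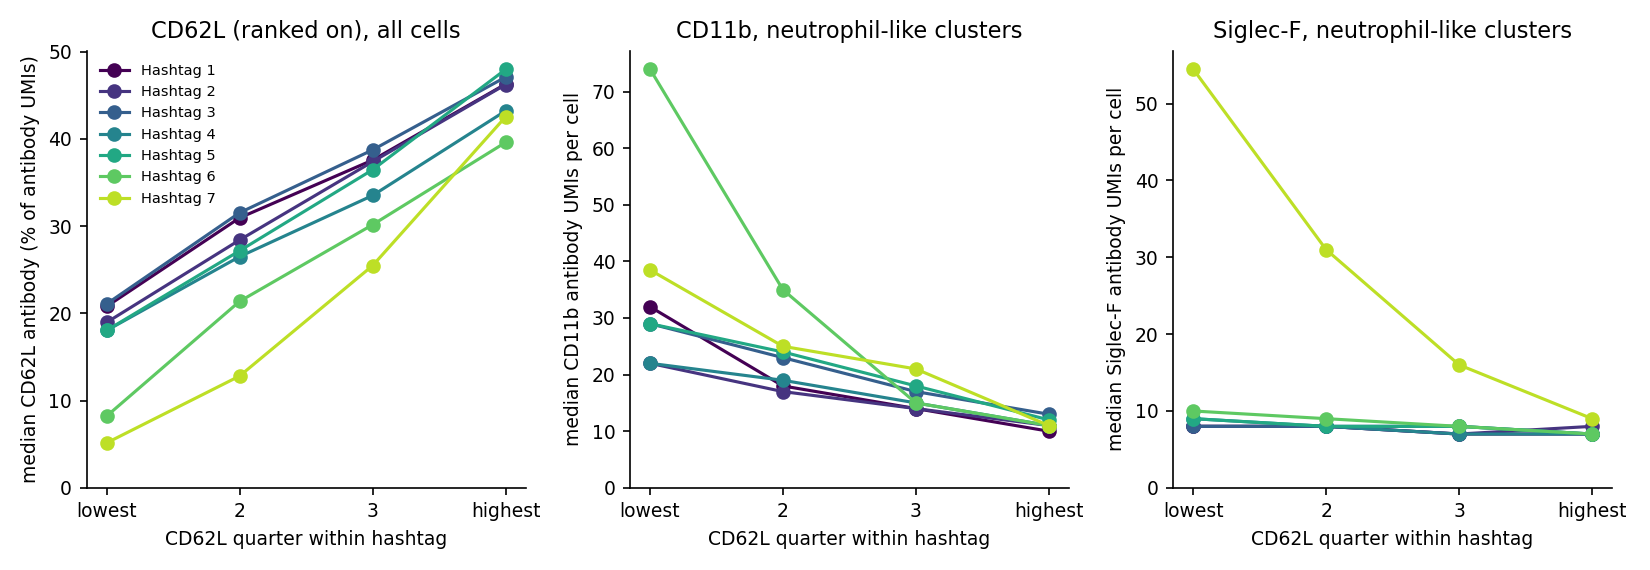
Median CD62L share of antibody UMIs in all ranked cells (left) and median CD11b (middle) and Siglec-F (right) antibody UMIs per cell in neutrophil-like clusters, by CD62L group, with 1 line per hashtag. CD11b falls from 22.0 to 74.0 UMIs in the lowest group to 10 to 13 in the highest in every hashtag, whereas the Siglec-F median is 54.5 UMIs in the lowest group of Hashtag 7 and at most 10.0 in that of the other hashtags.

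The label of a neutrophil held for most members and not for all. Clustering of all cells with 1 hashtag gave 3 clusters called neutrophil-like here, of which 2 were led by neutrophil genes such as Retnlg, S100a8 and S100a9 and 1 by Cxcl2, Il1r2, G0s2, Clec4n and Cd14. The last of these held 191 members and 56 cells of the high group, and 177 of these members came from Hashtags 6 and 7. There it made up 83.8% and 94.0% of the neutrophil-like members and 16.1% and 21.6% of the neutrophil-like cells of the high group, so in these 2 hashtags the groups lay mostly in different clusters. In Hashtags 1 to 5 it held 14 of 1168 and 3 of 1372 neutrophil-like cells. Together the 3 held 1369 of the 1674 members and 1663 of the 1674 cells of the high group. The other 305 members lay in clusters led by monocyte and macrophage genes. The main one held 206 members, in a cluster led by Cd74, H2-Ab1, Apoe and Pou2f2, with a median of 12750.5 gene UMIs per cell and 23.0 Ly6G antibody UMIs. Those cells carried both kinds of marker RNA, a median of 79.0 neutrophil and 52.5 monocyte/macrophage marker UMIs per cell. Another 61 members, in a cluster led by Spp1, Arg1 and Thbs1, had a median of 20037 gene UMIs and 46.0 CD62L antibody UMIs. Cells with 2 hashtags were removed, but doublets of cells that share a hashtag stay in, and no doublet caller was run.

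The share of members in neutrophil-like clusters ranged from 65.0% in Hashtag 6 to 92.4% in Hashtag 3, against 98.2% to 100% in the high group. Summed over their 12 markers, monocyte/macrophage RNA was 2637 to 10736 CPM (the gene's UMIs scaled to the total of its sum; median 3951) in the members and 300.5 to 592 CPM in the high group. Within neutrophil-like clusters it was 350 to 486 against 298 to 354 CPM. There none of its 7 markers tested passed with TMM scaling (median log2 0.21), while 3 passed as higher with library totals (median 0.46). The summed level of the 12 neutrophil markers there was 66923 to 216556 against 162217 to 288318 CPM, and S100a8 and S100a9 made up most of it. Of these 12 markers 4 passed as lower (Retnlg, S100a8, S100a9 and Mmp9) and 8 did not pass. With library totals 3 of the 12 were lower and 2 higher. Of the 4 eosinophil markers Epx, Prg2 and Il5ra were at 0 in both groups. The other, Ccr3, was at 2.45 to 13.3 CPM in all members and 0 to 5.06 CPM in the high group. Within neutrophil-like clusters Ccr3 was at 0 to 18.0 against 0 to 5.25 CPM, too low to be tested. Because of this mix, genes were also fitted in the part of both groups in neutrophil-like clusters, a choice made after seeing the data. From the granule genes onward, values are those of neutrophil-like clusters unless all members are named, and the count in all members is given for each list.

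**Figure D2:**
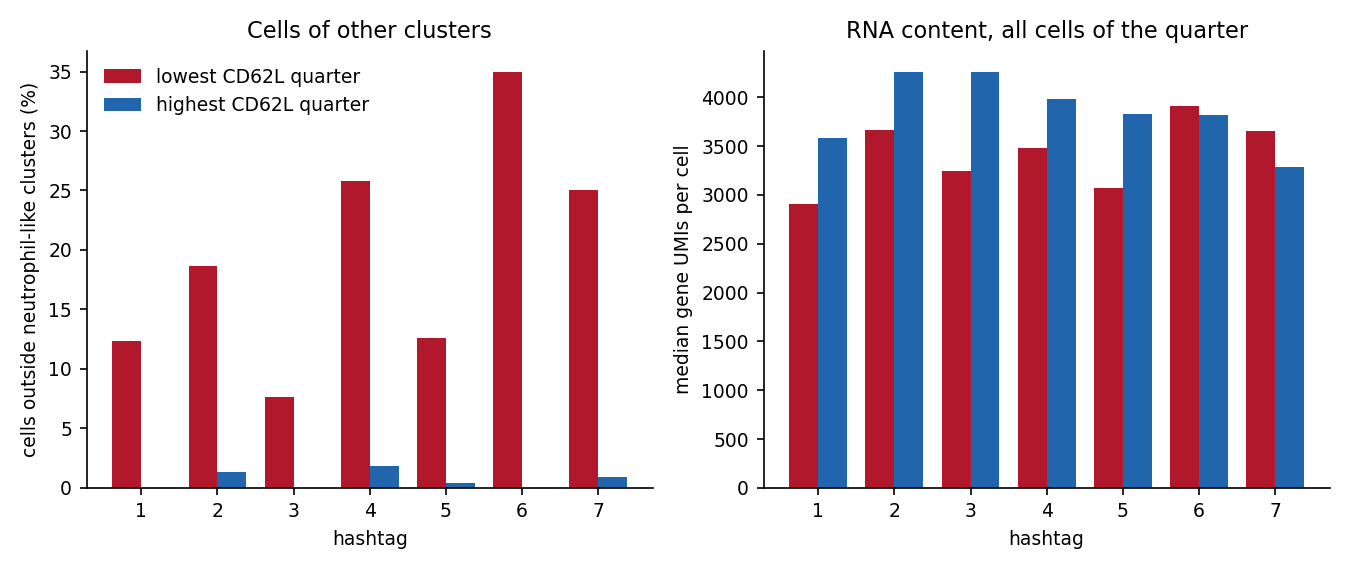
Share of cells outside neutrophil-like clusters (left, percent) and median gene UMIs per cell (right) in the lowest and highest CD62L group of each hashtag. The members hold cells of other clusters in every hashtag, while 98.2% to 100% of the high group lie in neutrophil-like clusters.

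Depth and RNA content were compared per cell with a test that has little reach here: over 7 hashtags its smallest p is 0.0156, which for 1 measure alone among 4 adjusts to 0.0625. Median gene UMIs per cell were 2902 to 3907 in members and 3286 to 4263.5 in the high group, lower in members in 5 of 7 hashtags (median difference -597, exact two-sided sign-flip permutation test over 7 hashtags, adjusted p = 0.0833 over 4 measures). Mitochondrial UMIs had hashtag medians of 0.281% to 0.528% against 0.254% to 0.424% (adjusted p = 0.0625, the same exact test). Cells with more monocyte/macrophage than neutrophil marker UMIs were 3.99% to 24.4% of members and 0% to 0.893% of the high group, higher in 7 of 7 hashtags (adjusted p = 0.0625, exact test). Within neutrophil-like clusters, members had 2820 to 3343 median gene UMIs against 3273 to 4263.5, lower in 6 of 7 hashtags (adjusted p = 0.0938, exact test).

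Of 6603 genes tested in all members, 3622 passed an adjusted p of 0.05 (edgeR quasi-likelihood test on UMI sums with 7 hashtags as blocks, Benjamini-Hochberg adjustment; 54.9%), 1950 higher (29.5%) and 1672 lower (25.3%), and 43.6% had the same direction in 7 of 7 hashtags. Within neutrophil-like clusters 547 of 5115 passed (10.7%), 239 higher (4.67% of those tested) and 308 lower (6.02%), and 13.2% had the same direction in 7 of 7 hashtags. Of these 547 genes, 453 were also called in all members (82.8%), which is 12.5% of the 3622, and 444 of them had the same sign in both. Fitted differences used TMM scaling, in which the median gene stays near 0. With library totals alone the median of all genes moved from 0.02 to 0.29 within neutrophil-like clusters, and the calls there became 1470 higher and 125 lower. The list counts with library totals given below stand beside these 1470 and 125 of 5115 genes. In all members the split moved from 1950 and 1672 to 3514 and 531. All 547 genes kept their sign with totals, and 364 of them passed. CPM values rest on totals, so they sit higher in members, relative to the high group, than the fitted differences do. S100a8 and S100a9 alone were 5.48% to 19.9% of the UMIs of members in neutrophil-like clusters and 13.8% to 26.1% in the high group.

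The largest rises in all members included 5 genes of MHC class II antigen presentation. H2-Aa, an MHC class II chain, was at 118 to 1271 CPM in members and 7.61 to 22.5 CPM in the high group (log2 4.80 ± 0.30, edgeR adjusted p = 9.8e-08). H2-Eb1, H2-Ab1, Cd74 and H2-DMa of the same pathway, Irf8, a transcription factor of the monocyte lineage, and Ly86, Ccdc88a and Pou2f2 rose by 3.87 to 4.65. Of these 9 genes, H2-Ab1 (0.41), Cd74 (0.59) and Pou2f2 (1.25) were abundant enough to be tested within neutrophil-like clusters, and there Pou2f2 alone passed (edgeR adjusted p = 0.00756). Pou2f2 is also among the leading genes of monocyte/macrophage-like clusters. All 10 of the monocyte/macrophage markers tested rose in all members. Msr1 and Fcgr1, which encode targets of the antibody panel, rose by 3.04 and 3.48 in all members and were at most 8.10 and 42.0 CPM in neutrophil-like clusters. The share of members in other clusters differed between hashtags, and its part in those rises was not tested. The rises depended on the ranking measure. When cells were ranked by CD62L UMIs in place of the share, 353 genes passed in place of 3622 and none of H2-Aa (0.41), H2-Eb1 (0.34), H2-Ab1 (0.43), Cd74 (0.43), Ccdc88a (0.01) and Pou2f2 (0.36) passed by edgeR. In that ranking Irf8 (-0.27), H2-DMa (-0.47), Msr1 (-0.41) and Fcgr1 (-0.51) turned sign and did not pass, and Ly86 fell (-0.54, edgeR adjusted p = 0.0113). Ranked per 1000 gene UMIs these genes rose by 3.34 to 4.72. That ranking divides by gene UMIs, so it places RNA-rich cells low by construction. Its members had 3399 to 5155 median gene UMIs per cell, against 2862 to 3509.5 in its high group.

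**Figure D3:**
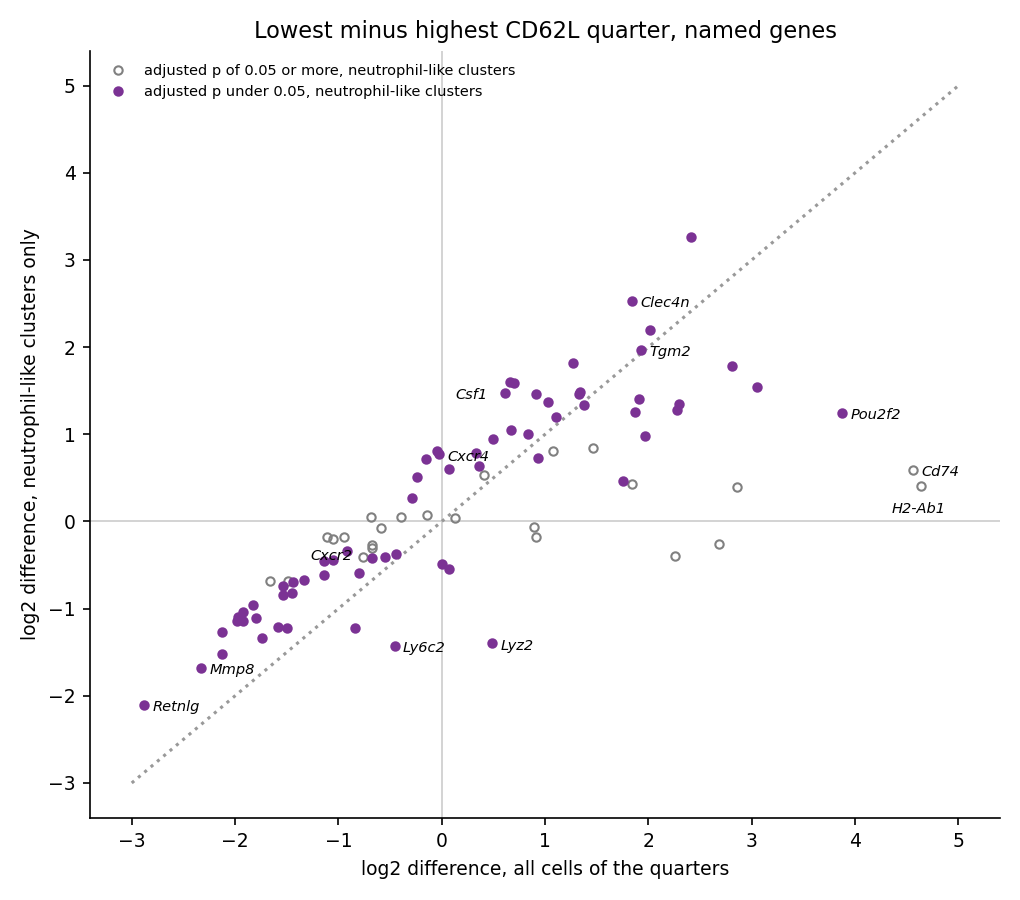
Fitted log2 difference (lowest minus highest CD62L group) of the named genes in all cells of the groups (horizontal) and in neutrophil-like clusters (vertical). Filled points passed an edgeR adjusted p of 0.05 in the neutrophil-like clusters, and the dotted line marks equal values. Retnlg and Mmp8 lie far below 0 on both axes, whereas Cd74 and H2-Ab1 lie at 4.56 and 4.64 on the horizontal axis and at 0.59 and 0.41 on the vertical one.

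Under the same limits, the 10 largest falls in all members were those of Retnlg, Mmp8, Ly6g, Rdh12, Lcn2, S100a8, S100a9, Wfdc21, the glucose transporter gene Slc2a3 and Asb7. They fell by 1.80 to 2.88 on the log2 scale, and each of the 10 also fell within neutrophil-like clusters (edgeR). Myl2, a cardiomyocyte marker outside these limits, fell by 2.02 in all members. Retnlg, a secreted resistin-like protein of neutrophils (chromosome 16, 48872621 to 48874496), was at 799 to 9853 CPM in members of those clusters (median 5748) and 12253 to 22171 CPM in the high group (median 18805). Its log2 difference was -2.10 ± 0.27 (edgeR adjusted p = 0.000418). Mmp8, the neutrophil collagenase (chromosome 9, 7558456 to 7568485), was at 78.4 to 479 CPM against 517 to 1153 CPM, a log2 difference of -1.68 ± 0.15 (edgeR adjusted p = 2.55e-05). The groups did not overlap for either gene, and Hashtag 7 was lowest for both. Without Hashtags 6 and 7, where the groups lay mostly in different clusters, Retnlg was -1.68 and Mmp8 -1.55, and both passed by edgeR. Ly6g, which encodes the antigen that marks mouse neutrophils, was at 3.73 to 183 CPM against 136 to 338 CPM (-1.52 ± 0.28, edgeR adjusted p = 0.00379), and its lowest value rests on 1 UMI, in Hashtag 7.

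Retnlg and Mmp8 are the pair with the largest of the named falls that the RefSeq promoter table (GRCm38.p6) holds, and the 250 bases before their start sites are shown. Capitals mark TTNNGNAA on either strand, a loose form of the site of C/EBP factors, which drive granule genes in developing neutrophils.
Retnlg, chr16:48872358-48872607, plus strand: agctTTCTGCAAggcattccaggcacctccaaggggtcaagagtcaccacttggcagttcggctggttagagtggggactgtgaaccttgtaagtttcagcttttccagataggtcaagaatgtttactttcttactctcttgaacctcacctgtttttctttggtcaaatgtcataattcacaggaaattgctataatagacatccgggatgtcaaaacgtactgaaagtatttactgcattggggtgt
Mmp8, chr9:7558179-7558428, plus strand: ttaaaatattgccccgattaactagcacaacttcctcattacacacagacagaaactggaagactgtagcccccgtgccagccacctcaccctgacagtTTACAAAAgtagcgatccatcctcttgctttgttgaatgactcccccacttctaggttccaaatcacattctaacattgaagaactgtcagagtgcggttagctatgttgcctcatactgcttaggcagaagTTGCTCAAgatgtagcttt
The Retnlg window held 1 match and the Mmp8 window 2, and 36.8% of all 32851 promoters of the table held at least 1 in the same window. Of the 10 genes named for the largest falls in neutrophil-like clusters 9 had a sequence and 7 of these a match. Of the 10 named for the largest rises 5 had a sequence and 1 a match. A gene counted if any of its promoters held a match, while the 36.8% is over single promoters. The gene counts and that share are therefore unlike measures. These are descriptions of letters and not of bound sites.

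The remaining genes among those 10 largest falls are given by range. Ly6c2, Lyz2 (lysozyme), Timp2 (an inhibitor of matrix metalloproteinases), Rdh12, Lrrk2, Aldh2 and Atxn10 fell by 1.21 to 1.43 on the log2 scale. Each fell in 7 of 7 hashtags, which was a condition of the choice. Lyz2 went from 2903 to 6621 CPM in the high group down to 814 to 2789 CPM, without overlap, and its log2 difference was -1.40 ± 0.14 (edgeR adjusted p = 8.02e-05). In all members Lyz2 had the opposite sign, 0.48; it is also among the leading genes of a monocyte/macrophage-like cluster. Ly6c2 kept its sign in all members but did not pass there, at -0.46 (edgeR adjusted p = 0.0668).

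Granule genes were described by class, since neutrophils fill their granules in turn as they mature. Of 9 tertiary granule genes tested in neutrophil-like clusters 6 fell and 1 rose, with a median log2 of -0.54 against 0.02 for all genes tested. With library totals 3 of these genes fell and the median was -0.27. In all members 8 of 10 fell and 1 rose (median -1.17). Beside Retnlg and Mmp8 the fallen were Pglyrp1 (-0.84), a peptidoglycan-binding protein, Adam8 (-0.61), Arg2 and Mmp9, and Slc11a1, a metal transporter of phagosomes, rose. Of 11 secondary granule genes 3 fell, Lyz2, Lcn2 (-1.14) and the haptoglobin gene Hp (-0.83), and 1 rose, Chil3 (1.54, higher in 5 of 7 hashtags). The median of that list was -0.46. With library totals 3 rose and 3 fell (median -0.19), and in all members 3 rose and 5 fell among 11 (median -0.28). Lcn2, which binds bacterial siderophores, was at 280 to 2549 CPM in members and 1437 to 4137 CPM in the high group, so the groups overlapped although it fell in 7 of 7 hashtags. Of the 7 primary granule genes in the files 1 was abundant enough to be tested, and it did not pass. S100a8 and S100a9, whose products form calprotectin, fell by 1.09 and 1.04 (edgeR adjusted p = 0.000252 and 0.000512). S100a8 was at 25700 to 83804 CPM against 64087 to 115242 CPM.

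**Figure D4:**
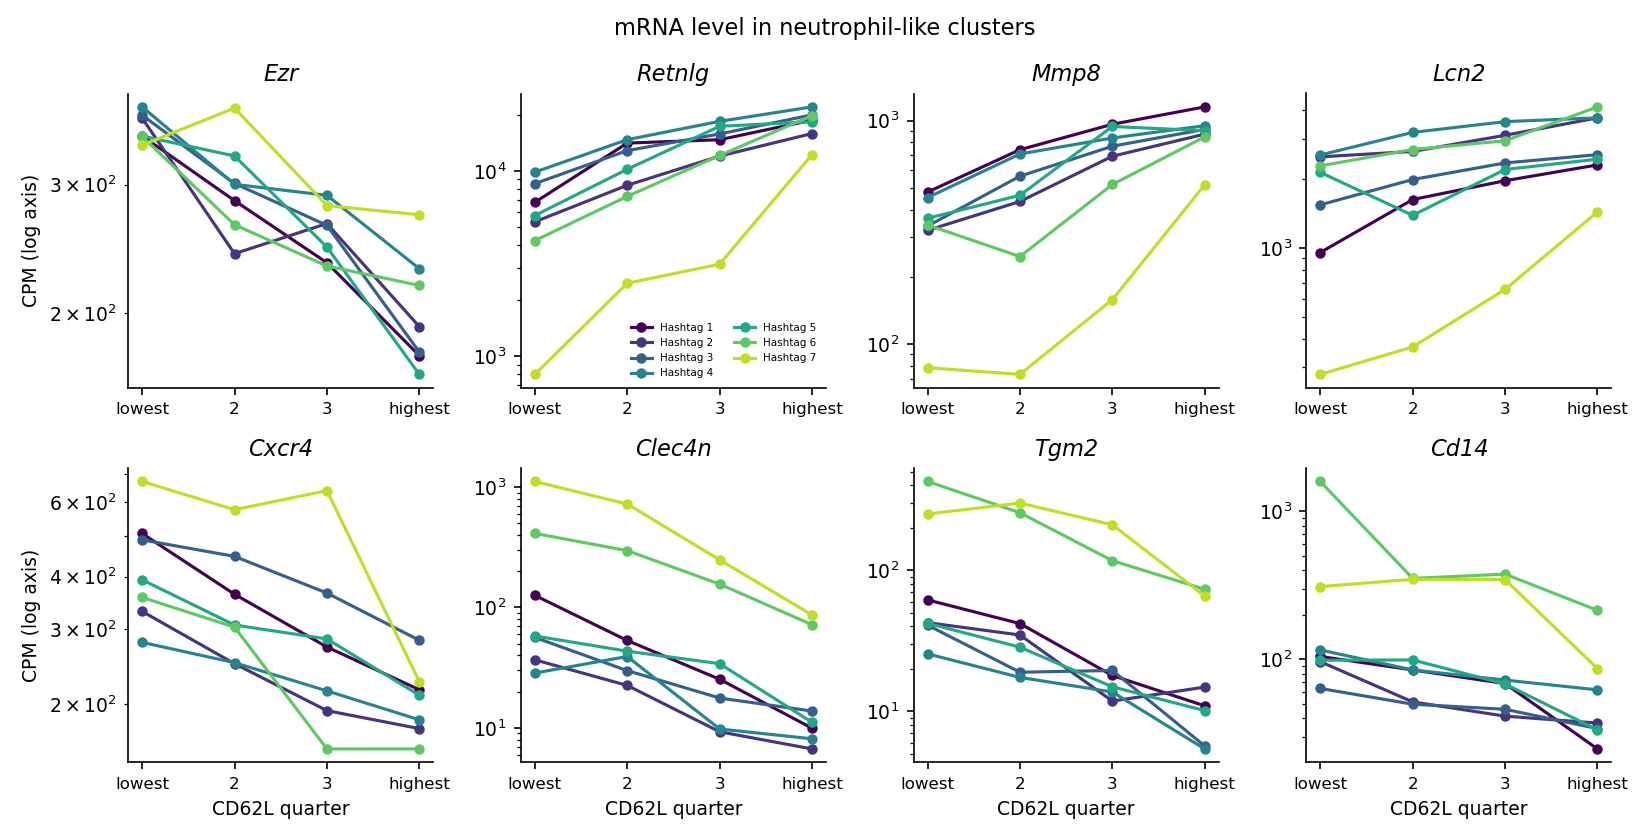
CPM of 8 genes (log axis) in neutrophil-like clusters across the 4 CD62L groups, with 1 line per hashtag. The median over hashtags goes from 5748 CPM in the lowest to 18805 CPM in the high group for Retnlg, while Clec4n goes from 58.0 to 11.1 CPM.

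Among genes with the same direction in 7 of 7 hashtags and a mean of at least 50 CPM, Clec4n, the receptor Dectin-2, had the largest rise in neutrophil-like clusters. It was at 28.6 to 1112 CPM in members and 6.69 to 86.5 CPM in the high group (log2 2.53 ± 0.20, edgeR adjusted p = 1.39e-05). Hashtags 6 and 7 had the highest Clec4n in both groups, 412 and 1112 CPM in members. The rise in each of the 7 hashtags was a condition of the choice. The neutrophil-like cluster that Cxcl2, Clec4n and Cd14 lead held more members than high-group cells, as given above, and its part in these rises was not tested. Tgm2, a transglutaminase, was at 25.5 to 425 CPM against 5.42 to 73.2 CPM (1.97 ± 0.16, edgeR adjusted p = 1.65e-05). Pmaip1, which encodes the death-promoting protein Noxa, was at 49.6 to 190 CPM against 12.7 to 49.8 CPM (1.82 ± 0.17, edgeR adjusted p = 3.46e-05). In all members Clec4n (1.84), Tgm2 (1.93) and Pmaip1 (1.27) rose as well by edgeR. The groups touched for Pmaip1: the highest value of the high group lay just above the lowest value of the members.

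Other genes of the 10 largest rises were Bhlhe40, a transcriptional repressor (2.20), the phosphatase gene Dusp16 (1.49), Csf1, the macrophage growth factor (1.48), Itgax, the CD11c integrin chain (1.46), Cd14, the co-receptor for lipopolysaccharide (1.46), P4hb, a protein disulfide isomerase (1.40), and Mrpl52 of the mitochondrial ribosome (1.34). Each rose in 7 of 7 hashtags, again a condition of the choice. Cd14 was at 63.6 to 116 CPM in the members of Hashtags 1 to 5, at 1586 CPM in Hashtag 6 and at 310 CPM in Hashtag 7. P4hb did not pass without Hashtags 6 and 7 (0.59, edgeR adjusted p = 0.0847), and Bhlhe40 was too low to be tested without them.

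Of the genes of CD62L shedding and its regulation 7 were tested within neutrophil-like clusters. Ezr rose and 6 did not pass, with a median of 0.05. With library totals 2 rose and none fell (median 0.32), and in all members Foxo3, Rhbdf2 and Klf2 fell and none rose among 7 tested (median 0.04). Ezr, which encodes ezrin, a protein that links the cell membrane with actin, was at 340 to 383 CPM in members and 165 to 273 CPM in the high group, without overlap (0.60 ± 0.11, edgeR adjusted p = 0.00382), and at 0.07 in all members (edgeR adjusted p = 0.678). Adam17 was at 33.3 to 127 CPM against 34.3 to 62.9 CPM, a log2 difference of 0.03 ± 0.15 (edgeR adjusted p = 0.917). Klf2, a zinc finger transcription factor, was at 1426 to 1802 CPM in the members of Hashtags 1 to 6 against 1095 to 1249 CPM, and at 508 against 949 CPM in Hashtag 7. Its log2 difference was 0.05 over 7 hashtags (edgeR adjusted p = 0.877) and 0.24 without Hashtags 6 and 7 (edgeR adjusted p = 0.000286). In all members Klf2 was at -0.40 (edgeR adjusted p = 0.0263).

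Among chemoattractant receptors, Cxcr4 rose. It was at 280 to 672 CPM in members of neutrophil-like clusters (median 393) and 156 to 283 CPM in the high group (median 210), and it rose in 7 of 7 hashtags (log2 0.77 ± 0.11, edgeR adjusted p = 0.000992). The ranges touched, the lowest member value being 280 CPM in Hashtag 4 and the highest value of the high group 283 CPM in Hashtag 3. In all members the difference was -0.02 (edgeR adjusted p = 0.871) and turned to 0.39 with library totals alone. Cxcr2, the receptor with which neutrophils leave the marrow, was at 1810 to 2950 CPM against 2032 to 2719 CPM and differed by -0.18 ± 0.09 (edgeR adjusted p = 0.247), or 0.09 with library totals, whereas in all members it fell by 1.11 on the log2 scale (edgeR adjusted p = 7.63e-05). Fpr1 (-0.74) and Fpr2 (-0.46), receptors of formylated peptides, fell and Ptafr (0.51), the receptor of platelet-activating factor, rose, while 9 of 13 genes tested did not pass. The median of the list was -0.15. With library totals it was 0.12, with 5 rises and 1 fall. In all members 9 of 13 fell and none rose (median -0.69), and Ptafr was at -0.24 there (edgeR adjusted p = 0.115).

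Integrin and adhesion genes gave 3 rises and 1 fall among 17 tested. With library totals 7 rose and none fell, and in all members 6 rose and 6 fell among 20. Itgax is described above, Itgb1 rose by 1.28 and Cd44, a receptor of hyaluronan, rose by 0.27, from 841 to 1041 CPM in the high group to 1204 to 1407 CPM in members, without overlap. In all members Cd44 differed by -0.29, the opposite sign. Fermt3, which encodes kindlin-3, needed for integrin activation, fell by 0.54 and was at 0.07 in all members (edgeR adjusted p = 0.622). Itgam mRNA, encoding the CD11b whose antibody rose at least 2.00-fold in every hashtag, was at 387 to 885 CPM against 364 to 552 CPM, a log2 difference of 0.07 ± 0.10 (edgeR adjusted p = 0.697; 0.34 with library totals). Itga4 was higher in Hashtags 1 to 5 (383 to 555 CPM against 108 to 245 CPM) and lower in Hashtags 6 and 7 (150 and 216 against 255 and 315 CPM). Over 7 hashtags it did not pass (0.53, edgeR adjusted p = 0.204), and without Hashtags 6 and 7 it was 0.96 (edgeR adjusted p = 3.69e-13). Icam1 was under the minimum for a test in these clusters, at 10.0 to 146 CPM against 2.97 to 10.5 CPM.

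Of the NF-kB targets and cytokines 6 of 21 tested rose and none fell (edgeR), with a median of 0.40. With library totals 15 rose and none fell. In all members 9 of 25 rose and 6 fell (median 0.09), and Il1b and Tnfaip2, which rose in neutrophil-like clusters, were among the 6. Cxcl2, a chemokine that draws neutrophils, had the largest value, 3.27 ± 0.77 (edgeR adjusted p = 0.0169), and it came from Hashtags 6 and 7: 2961 and 1194 CPM in their members against 59.2 and 31.5 CPM in their high groups. In Hashtags 1 to 5 Cxcl2 was at 4.60 to 15.8 CPM in members and 3.25 to 13.9 CPM in the high group. Ccl4 (1.60) was 609 and 287 CPM in the members of Hashtags 6 and 7, and without these it did not pass (0.18, edgeR adjusted p = 0.716). Ptgs2 (1.59), which encodes cyclooxygenase 2, Cd14, Il1b and Tnfaip2 were the others. In all members Ccl4 (0.66, edgeR adjusted p = 0.172) and Ptgs2 (0.70, edgeR adjusted p = 0.052) did not pass. Of 13 immediate early genes 3 rose, Nr4a1 (1.78), Atf3 (1.37) and Jun (0.94), and none fell (median 0.07). With library totals 8 of them rose (median 0.34). In all members 6 of 16 rose and 9 fell (median -0.42), Dusp1, Fos and Junb among the latter. Nr4a1, a nuclear receptor, was at 27.6 to 52.3 CPM in members and 4.97 to 15.4 CPM in the high group, without overlap. Among pattern receptors Clec4n, Cd14 and Nod1 (1.04), a sensor of bacterial cell wall, rose and 11 of 14 did not pass, while 6 rose with library totals, and in all members 4 of 16 rose and 8 fell.

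Of 18 survival and death genes 3 rose, all of them known to promote death: Pmaip1, Bax (0.98) and Bcl2l11, which encodes Bim (0.79). With library totals 6 rose and none fell, and in all members 9 of 22 rose and 7 fell, with Bcl2, a survival gene, among those that rose (2.96). Bax did not pass without Hashtags 6 and 7 (0.55, edgeR adjusted p = 0.0531). Of the genes linked with Siglec-F+ neutrophils 6 of 9 tested rose and none fell, with a median of 0.73. With library totals all 9 rose, and in all members 10 of 12 rose and 1 fell. The 6 in neutrophil-like clusters were Gngt2, a G protein subunit (1.26), Xbp1, a transcription factor of the unfolded protein response (1.01), Dusp5 (1.34), Siglecf (0.80), Cd274 and Ctsb. Gngt2 was at 231 to 918 CPM against 75.6 to 362 CPM, and it is also among the leading genes of monocyte/macrophage-like clusters. Siglecf mRNA was at 205 CPM in the members of Hashtag 7, where its antibody was also highest, and at 21.8 to 36.1 CPM in the members of the other hashtags, and in all members it was at -0.05 (edgeR adjusted p = 0.875). Dusp5 did not pass without Hashtags 6 and 7 (0.63, edgeR adjusted p = 0.101). Xbp1, Hspa5 (0.72), a chaperone of the endoplasmic reticulum, and Atf4 (0.63) rose in the list of protein synthesis stress, where 10 genes were tested. With library totals 5 rose there, and in all members 8 of 14 rose and 3 fell.

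Actin and glucose genes had more falls than rises on the TMM scale, as had all genes tested (6.02% lower and 4.67% higher). Of 24 actin cytoskeleton genes 6 fell and none rose, Tmsb4x, Coro1a, Actg1, Lcp1, Arpc5 and Arpc3, with a median of -0.23, but with library totals the median was 0.04, none fell and 3 rose. In all members 16 of 24 fell and 3 rose (median -0.37). Tmsb4x, which encodes an actin-sequestering peptide, was at 15432 to 30090 CPM against 23295 to 30192 CPM (-0.41 ± 0.11, edgeR adjusted p = 0.034). Of 25 hypoxia and glycolysis genes 3 fell, the glucose transporter gene Slc2a3 (-0.96), Hk3 (-0.67) and Gpi1 (-0.59), and none rose, whereas with library totals 2 fell and 5 rose. In all members 8 of 27 fell and 2 rose, beside 25.3% lower and 29.5% higher among all genes tested there. Slc2a3 was at 108 to 354 CPM against 260 to 509 CPM. Of 7 NADPH oxidase genes Rac2 fell (-0.44), and with library totals none fell and 1 rose, and in all members 4 fell and 1 rose. Interferon-stimulated genes showed 2 rises, Ifi47 and Gbp2, and 2 falls, Ddx60 and Ifitm3, among 26 tested (median 0.24). With library totals 7 rose and none fell (median 0.51), beside 1470 higher and 125 lower among all 5115 genes tested (median 0.29). In all members 4 of 27 rose and 9 fell (median -0.22), beside 1950 higher and 1672 lower among all 6603 genes tested. Of 3 clock genes tested Bhlhe40 rose, and in all members 2 of 5 rose.

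**Figure D5:**
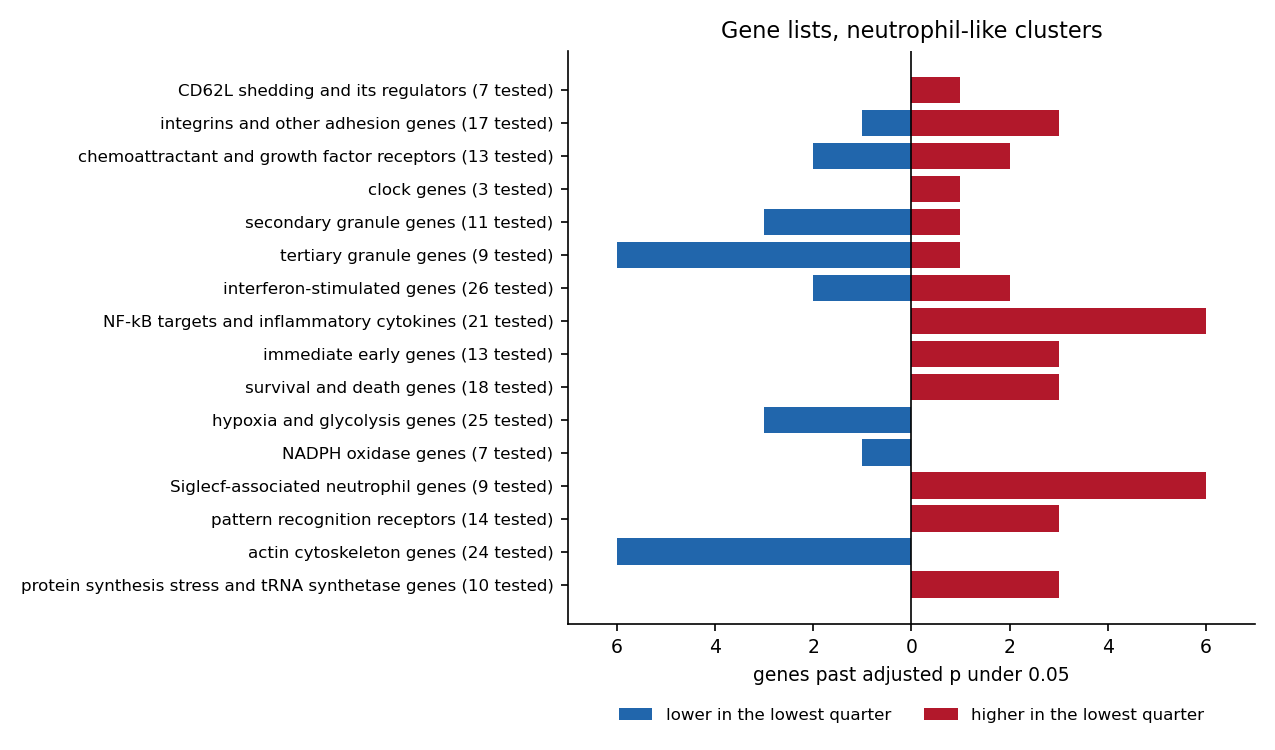
Number of genes of each list that passed an edgeR adjusted p of 0.05 in neutrophil-like clusters, to the right when higher and to the left when lower in the members; lists with at least 3 genes tested are shown. Tertiary granule genes have 6 of 9 lower, and genes linked with Siglec-F+ neutrophils 6 of 9 higher, beside 6.02% lower and 4.67% higher among all genes tested.

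The middle groups, made of other cells of the same hashtags, gave fewer calls, and each difference named here was smaller than between the outer groups. The second-lowest against the second-highest group had 811 of 6101 genes past an edgeR adjusted p of 0.05 (13.3%; 7.69% higher and 5.61% lower) in all cells, and 11.9% had the same direction in 7 of 7 hashtags. There were 34 of 5443 (0.625%) in neutrophil-like clusters, 28 lower (0.514%) and 6 higher (0.11%), with 3.55% in the same direction in 7 of 7 hashtags. In neutrophil-like clusters Mmp8 (-0.68), Retnlg (-0.50), Ly6g (-0.50), Lcn2 (-0.38), Lyz2 (-0.36), S100a8 and S100a9 fell there as well, and Clec4n (1.07) and Tgm2 (0.79) rose. Of the 34 genes 32 (94.1%) were also among the 547 of the outer groups, 5.85% of these, all with the same sign. Cxcr4 was 0.23 and did not pass (edgeR adjusted p = 0.214).

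The count of genes in neutrophil-like clusters depended on the hashtags included and on how CD62L was ranked. It was 316 without Hashtag 1, 353 without Hashtag 2, 313 without Hashtag 5, and 965 without Hashtags 6 and 7 together. When cells were ranked by CD62L UMIs in place of the share, 585 genes passed, among them 460 of the 547 with the same sign. Over all clusters, 79.0% of the members by CD62L UMIs were also members by share, so this is largely agreement of the same cells. Ranked by CD62L UMIs, the members in neutrophil-like clusters had less RNA than the high group, 2794 to 3312 against 3413 to 4424 median gene UMIs, as they had in the ranking by share. Ranked by CD62L per 1000 gene UMIs, 17 passed, although 94.1% of those of the 547 that were tested kept their sign. Over all clusters, 73.3% of the members by that ranking were also members by share, so the signs are not independent. With CD62L per 1000 gene UMIs the members in neutrophil-like clusters had 3119 to 3908 median gene UMIs against 2862 to 3511 in the high group. The part of RNA content in these calls was not tested. Clec4n (1.23), Tgm2 (1.03), Cd14 (1.34), Ezr (0.54) and Xbp1 (0.68) still passed by edgeR, Retnlg (-0.41) and Mmp8 (-0.29) did not pass, and Ly6g, Lcn2, Fpr1 and Atxn10 changed sign.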

How the data were processed

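Gene, hashtag and antibody values are raw UMI counts per barcode, deposited by the authors as a sparse matrix made with Cell Ranger 3.0.2, per the file headers, on build mm10, per the submitters' processing notes. The pool held 11826 barcodes, and 11592 passed the limits on genes and mitochondrial UMIs, 10329 had 1 hashtag and 6702 passed the Ly6G minimum. Barcodes with 2 hashtags were dropped and no doublet caller was run. Of its barcode sequences 28 also occur in another pool of the series.

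Raw UMIs were summed per gene, hashtag and CD62L group. The 14 sums of each comparison were fitted with edgeR 4.0.16 (quasi-likelihood test, filterByExpr, TMM, hashtag as a block, Benjamini-Hochberg over all genes tested). Sums held 390135 to 1653916 UMIs for all cells and 250457 to 1320840 for neutrophil-like clusters. Pairs are the low and high groups of 1 hashtag, so the pairing comes from the ranking itself. Clusters were made with scanpy 1.11.5. Per-cell measures were tested by an exact sign-flip permutation test.

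Named genes were the genes of the antibody targets, Cxcr2, Cxcr4, Itga4, Adam17 and Klf2, the 10 highest and 10 lowest differences among genes past an adjusted p of 0.05 with the same direction in every hashtag and a mean of at least 50 CPM, and up to 4 called genes per list. Other list members were named after their values were seen, to complete counts. Some items that the rule names are not reported here. The members and lists were chosen with earlier results of these data known. On simulated data the fit recovered 93.3% of genes changed by 1 on the log2 scale in all cells and 93.6% in neutrophil-like clusters. The simulation changed few genes, as many up as down, and left the rest equal in both groups. It therefore cannot show how the fit performs where many genes differ, as in all members.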

Additional observations from a re-analysis of the deposited data

Results flagged for a closer look

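Of 47 values examined over the 7 hashtags, 10 had 1 hashtag far from the others. Chance alone sets apart about 1 in 20 of continuous values, which bears on the 34 other than antibody medians, of which 5 were set apart. The other 5 are among 13 antibody medians, which take few distinct values and are often tied, so that rate does not hold for them. Within neutrophil-like clusters the differences of Hashtag 7 lay apart for Retnlg (-4.25, the nearest other hashtag -2.44), Mmp8 (-3.0 against -1.70), Klf2 (-1.21 against 0.14) and Cxcr2 (-0.62 against -0.21), all on the log2 scale. Members of Hashtag 7 also had the highest median number of genes, 1587 against 1352.5, and in neutrophil-like clusters the highest CD54 antibody, 25.0 UMIs against 16.0, and Siglec-F antibody, 54.5 against 10.0. Members of Hashtag 6 had the highest CD11b antibody, 74.0 UMIs against 38.5, FCeRIa antibody, 25.0 against 17.0, and IA-IE antibody, 4.00 against 3.00, a difference of a single UMI.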

How the results depend on the processing

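The number of genes tested differed between settings and is given where it moved most. For the outer groups in all cells, 3622 of 6603 genes became 1993 of 5883 in cells with more neutrophil than monocyte marker UMIs. The count was 353 of 6583 ranked by CD62L UMIs, 590 of 3070 thinned and 2039 of 4752 with at least 20 Ly6G UMIs. It was 512 of 5224 with 10 times as many neutrophil markers, 547 of 5115 in neutrophil-like clusters and 3246 to 3788 without 1 hashtag. Within these clusters the count was 1595 with library totals, 882 of 13931 without the filter and 68 without the replicate block. It was 965 of 5422 without Hashtags 6 and 7, 282 of 3820 with 20 Ly6G UMIs and 17 of 5232 ranked per 1000 gene UMIs. Thinning gave 225 of 2802, and narrower tails (10% of cells at each end, where Hashtag 7 drops out) gave 206 of 3133. Without 1 hashtag it was 313 to 584 (316 without Hashtag 1, 353 without 2, 313 without 5).

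For the middle groups, 811 of 6101 became 382 with DESeq2 and 0 without the replicate block (edgeR, 397 at an unadjusted p under 0.05). The count was 55 of 5763 in cells with more neutrophil markers, 47 of 5522 ranked per 1000 gene UMIs and 3 of 6289 by CD62L UMIs. It was 194 of 5680 at a hashtag ratio of 10, 51 of 3010 thinned and 179 of 4707 with 20 Ly6G UMIs. It was 46 of 5427 with 10 times the markers, 34 of 5443 in neutrophil-like clusters and 523 to 823 without 1 hashtag (525 without Hashtag 4, 523 without 5). The 34 became 21 with DESeq2, 79 with totals, 60 of 14036 without the filter and 0 without the replicate block (edgeR, 94 unadjusted). They became 74 without Hashtags 6 and 7, 5 of 3946 with 20 Ly6G UMIs, 2 per 1000 gene UMIs and 20 of 2910 thinned. Without 1 hashtag there were 18 to 65 (22 without Hashtag 3, 18 without 5, 65 without 7).

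Ranked per 1000 gene UMIs, the per-cell differences were 817 gene UMIs, 163.5 genes, 0.189 percentage points of mitochondrial UMIs and 9.84 of cells with more monocyte/macrophage markers. Signs turned in all cells for H2-Eb1 (-0.17, more neutrophil markers), ranked by CD62L UMIs for Irf8 (-0.27), H2-DMa (-0.47), Ly86 (-0.54), Msr1 (-0.41) and Fcgr1 (-0.51), and per 1000 gene UMIs for Ly6c2 (0.52). Cxcr4 turned to 0.39 with totals, 0.46 with more neutrophil markers, 0.71 by CD62L UMIs, 0.60 thinned, 0.71 with 10 times the markers and 0.77 in neutrophil-like clusters. Klf2 turned to 0.023, 0.23, 0.028, 0.047 and 0.051 with totals, CD62L UMIs, thinning, 10 times the markers and the clusters, Itgam to 0.28 with totals, Csf1r to -0.19 and -0.18 with 10 times the markers and in the clusters, and Siglecf to 0.80 there. In the clusters, ranking per 1000 gene UMIs turned Ly6g (0.18), Atxn10 (0.046), Fpr1 (0.032) and Lcn2 (0.066). The cause was not tested. A Ly6G minimum of 50 left too few cells to fit.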
